A study of Bos taurus with 54 samples.

Results

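The B cell identity genes are MS4A1, CD79A, CD79B, PAX5, BLK, CD22, FCRLA, BANK1 and JCHAIN, genes whose products mark B lymphocytes or take part in their work. They were chosen by gene symbol, and all 9 were found among the 32637 genes counted in each library. Blood was drawn from 15 Holstein male calves housed in climate-controlled rooms, in the morning before heat exposure (thermoneutral control) and in the evening after 12 h of heat (heat stress). Red blood cells were lysed, so the RNA comes from the cells that remained in the pellet. Libraries were made with 2 kits that read the 3′ end of mRNA, QuantSeq 3′ of Lexogen and SMART-Seq v4 3′ DE of Takara. With each kit, 13 libraries of the thermoneutral control were compared with 13 libraries of heat stress, and 12 calves had both times. No treatment other than heat, no genotype beyond the breed and no age are given in the sources used here. All controls were sampled in the morning and all heat stress samples in the evening, so heat and time of day cannot be told apart. The labels and the study's table of the design place the single sample of animal 20 at different times, and its libraries are outside the comparisons. Counts on genes ranged from 5140595 to 20699030 per Takara library and from 4516761 to 58521751 per Lexogen library. The highest Lexogen total came from animal 15 after heat stress, and the next was 15607291.

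B cells recognise antigen with a membrane immunoglobulin, which signals through CD79A and CD79B. Kinases such as BLK and adaptors such as BANK1 carry that signal on, CD22 restrains it, and PAX5 keeps the cell committed to the B lineage. Activated B cells can become plasma cells, which secrete antibody and express JCHAIN. In blood, B cells circulate beside T cells, NK cells, monocytes and neutrophils, so a level measured in bulk RNA reflects both the cells present and the RNA in each cell.

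After heat stress, 1 of the 9 B cell identity genes, BLK, was called lower in Takara libraries and 0 were called higher. A gene was called when its adjusted p was under 0.05 in the quasi-likelihood test of edgeR, adjusted over all genes tested by the Benjamini-Hochberg procedure. Of the 12620 genes tested in Takara, 10.5% were called lower and 18.4% were called higher. In Lexogen libraries, 0 of the 9 genes were called lower and 0 higher, against 0.459% and 5.09% of the 11108 genes tested. DESeq2 also called 1 gene lower in Takara and 0 in Lexogen, and 0 higher in either kit. The shares given above are those of edgeR, and the DESeq2 counts have no share of all genes beside them. All 9 genes passed the filter on low counts in both kits. An unadjusted p under 0.05 was found for 4 of the 9 genes in Takara, against 40.9% of all genes, and for 0 in Lexogen, against 16.9%. Fewer B cells, less RNA per B cell and a larger share of RNA from other cells cannot be told apart in these bulk samples.

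The median log2 fold change, heat stress against control, over the 9 genes was -0.34 in Takara and -0.40 in Lexogen. Over all genes tested it was -0.054 in Takara and -0.077 in Lexogen. The fit with the calf as a block gave a median over the 9 genes of -0.54 in Takara and -0.47 in Lexogen, where the genes tested in both fits had medians of -0.060 and -0.21. With total counts as library size in place of TMM, the median over all Takara genes was -0.27, a shift of 0.22, and fold changes given here are on the TMM scale. The levels of genes and lists, and the counts of calves lower or higher, are on the scale of total counts. Levels and fold changes of a gene are therefore not on the same scale, and a lower level is not by itself particular to that gene. The log2 fold change was below 0 for 7 of the 9 genes in Takara and for 9 of 9 in Lexogen, against 55.0% and 55.8% of all genes. BANK1 and JCHAIN were the exceptions in Takara, and with total counts as library size BANK1 also came below 0, at -0.089.

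With the calf as a block, 4 of the 9 genes were called lower in Takara, namely CD79B, PAX5, BLK and CD22, against 10.1% of the 12651 genes tested. In that paired fit 0 were called higher, against 14.9% of genes. In Lexogen the paired fit called 0 of 9 lower and 0 higher, against 0.153% and 0.415% of the 11087 genes tested. The plot of the changes by gene shows both fits side by side. The call of BLK without the block lay close to the threshold: it was lost when any of animals 7, 12, 15, 16, 18, 19, 23, 29, 32, 36 or 40 was left out, with adjusted p between 0.0100 and 0.109 over the 14 calves left out in turn (edgeR). Its log2 fold change stayed between -1.25 and -0.87 over those 14 fits. Without animal 12, CD79B and PAX5 were called in place of BLK, and without animal 41, CD22 was called beside it.

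**Figure D1:**
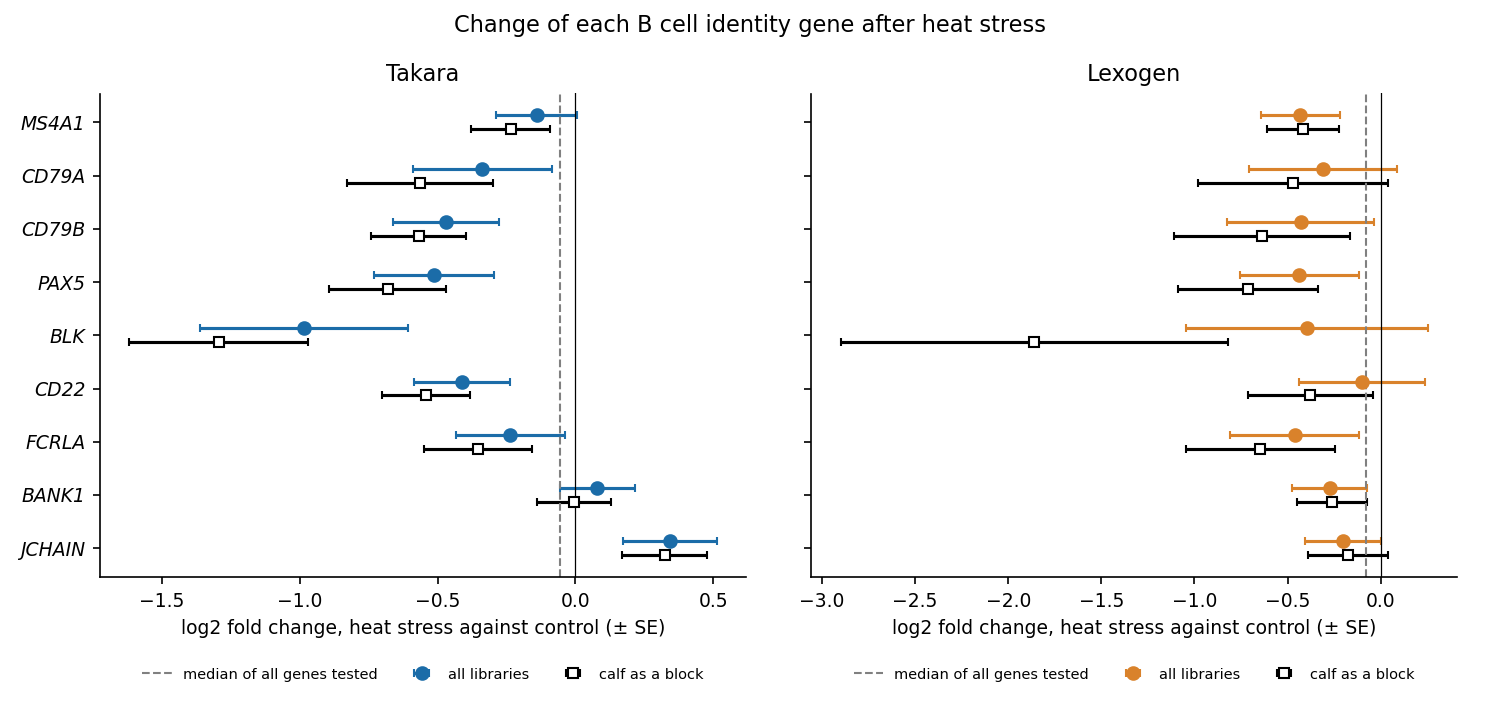
Log2 fold change of each B cell identity gene, heat stress against thermoneutral control, with its standard error, in Takara (left) and Lexogen (right) libraries. Filled circles are the fit over 13 against 13 libraries, open squares the fit with the calf as a block, and the dashed line is the median of all genes tested in the fit without the block, -0.054 in Takara and -0.077 in Lexogen. BLK lies farthest below 0 in Takara, at -0.98.

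CD79A and CD79B form the signalling pair of the B cell receptor. CD79A (chromosome 18, 51344685 to 51348374 in ARS-UCD2.0) had 6.98, 16.1 and 23.8 CPM (a gene's share of the counts on genes, times 1000000; lowest, median and highest of 13) in Takara controls and 2.30, 9.91 and 27.1 CPM after heat stress. The heat stress libraries spanned the whole control range, with 5 of 13 below the lowest control and 1 above the highest. Its log2 fold change was -0.34 ± 0.25 (SE; edgeR, adjusted p = 0.323), and 7 of 12 calves were lower. With the calf as a block it was -0.56 ± 0.26 (SE; edgeR, adjusted p = 0.121), and it ran from -0.48 to -0.23 when each calf was left out. CD79B (chromosome 19, 48131334 to 48135523) had 33.9, 61.6 and 82.3 CPM in Takara controls and 9.53, 33.6 and 74.8 CPM after heat stress. The groups overlapped, but 7 of 13 heat stress libraries lay below the lowest control and 0 above the highest. The log2 fold change of CD79B was -0.47 ± 0.19 (SE; edgeR, adjusted p = 0.0682) and -0.57 ± 0.17 with the calf as a block (adjusted p = 0.0278), and 9 of 12 calves were lower. In Lexogen libraries, medians went from 13.9 to 11.7 CPM for CD79A and from 33.98 to 21.48 CPM for CD79B. The Lexogen groups overlapped for both genes, and the lowest CD79B value, 0.217 CPM in animal 18 after heat stress, was a single read, a count of 1.

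BLK is a SRC family kinase that acts beside LYN at the B cell receptor, and BANK1 is a scaffold that joins the receptor to calcium release. BLK (chromosome 8, 7822307 to 7874141) had 62.3, 178 and 337 CPM in Takara controls and 11.5, 53.3 and 347 CPM after heat stress. Of the 13 heat stress libraries 7 lay below the lowest control, while that of animal 3 lay above the highest. The log2 fold change was -0.98 ± 0.38 (SE; edgeR, adjusted p = 0.0498), a fold of 0.506, and 10 of 12 calves were lower. With the calf as a block it was -1.29 ± 0.32 (SE; edgeR, adjusted p = 0.0150). Within the lower of the 2 series of sample numbers BLK was at -1.31 ± 0.42 (adjusted p = 0.0381) and within the upper at -0.67 ± 0.59 (edgeR, adjusted p = 0.495). With total counts as library size it was -1.04 ± 0.43 (edgeR, adjusted p = 0.0644), which did not pass. In Lexogen libraries BLK was sparse, with a median of 13.3 CPM in controls and 4.65 CPM after heat stress, where 2 of 13 libraries had a count of 0. The Lexogen log2 fold change of BLK was -0.40 ± 0.65 (SE; edgeR, adjusted p = 0.833), an error too wide to show a change of the size measured in Takara. With the calf as a block it was -1.86 ± 1.04 (SE; edgeR, adjusted p = 0.439). When each calf was left out it ran from -1.02 ± 0.65 (without animal 12) to -0.20, and within the upper number series it was 0.10.

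BANK1 (chromosome 6, 22695175 to 23016313) had 85.2, 123 and 162 CPM in Takara controls and 42.02, 118.5 and 178.8 CPM after heat stress. The heat stress libraries lay on both sides of the controls, 5 below the lowest and 4 above the highest, so the standard deviation of the levels was 2.29 times that of the controls. Its log2 fold change was 0.080 ± 0.14 (SE; edgeR, adjusted p = 0.684), -0.0045 with the calf as a block, and 6 of 12 calves were lower and 6 higher. In Lexogen, BANK1 had a median of 125 CPM in controls and 115.5 CPM after heat stress, and a log2 fold change of -0.27 ± 0.20 (SE; edgeR, adjusted p = 0.539).

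MS4A1 encodes CD20, the surface protein most used to identify B cells, and CD22 is an inhibitory lectin of the B cell surface. MS4A1 (chromosome 15, 83282895 to 83298116) had 226, 289 and 399 CPM in Takara controls and 68.1, 254 and 412 CPM after heat stress. The lowest heat stress value came from animal 40, 6 of 13 libraries lay below the lowest control, and that of animal 32 lay above the highest. The log2 fold change was -0.14 ± 0.15 in Takara (SE; edgeR, adjusted p = 0.488) and -0.43 ± 0.21 in Lexogen (SE; edgeR, adjusted p = 0.299), with 8 of 12 calves lower in each kit. Another annotated gene overlaps MS4A1, and reads that fall on both stay uncounted when strand is not used: sense counts came to 102% of the unstranded counts in Takara and 107% in Lexogen. CD22 (chromosome 18, 46035956 to 46049449) had 48.6, 87.6 and 108 CPM in Takara controls and 13.4, 56.9 and 94.1 CPM after heat stress. For CD22, 5 of 13 heat stress libraries lay below the lowest control and 0 above the highest. Its log2 fold change was -0.41 ± 0.18 (SE; edgeR, adjusted p = 0.0777), and -0.54 ± 0.16 with the calf as a block (adjusted p = 0.0236), with 9 of 12 calves lower. In Lexogen, CD22 ranged from 4.13 to 106 CPM after heat stress and its log2 fold change was -0.099 ± 0.34 (SE; edgeR, adjusted p = 0.931). That value was -0.38 in the paired fit, -0.50 without animal 12, and above 0 without animal 18 (0.017) or animal 29 (0.054).

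PAX5, the transcription factor that holds cells in the B lineage and drives CD79A, was the only regulator of transcription among the 9 genes. It (chromosome 8, 60996117 to 61178222) had 42.6, 76.4 and 120 CPM in Takara controls and 11.7, 44.5 and 96.8 CPM after heat stress. Of the heat stress libraries 5 lay below the lowest control, and the rest overlapped with the controls. The log2 fold change of PAX5 was -0.51 ± 0.22 (SE; edgeR, adjusted p = 0.0755), and -0.68 ± 0.21 with the calf as a block (adjusted p = 0.0297), with 9 of 12 calves lower. Within the series of sample numbers it was -0.14 ± 0.31 in the lower and -0.88 ± 0.25 in the upper, where it passed the threshold (edgeR, adjusted p = 0.0487). In Lexogen, PAX5 was at -0.44 ± 0.32 (SE; edgeR, adjusted p = 0.540), also with 9 of 12 calves lower. That value ran from -0.66 to -0.23 when each calf was left out, and was -0.71 ± 0.38 with the calf as a block.

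FCRLA is an intracellular Fc receptor-like protein of B cells. In Takara it (chromosome 3, 7896272 to 7907981) had 52.95, 82.55 and 115.6 CPM in controls and 14.8, 54.2 and 132 CPM after heat stress. The heat stress libraries again spanned more than the control range, 6 of 13 below it and 1 above. FCRLA was at -0.24 ± 0.20 in Takara (SE; edgeR, adjusted p = 0.376) and at -0.46 ± 0.35 in Lexogen (SE; edgeR, adjusted p = 0.554), with 8 of 12 calves lower in each.

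JCHAIN joins IgM and IgA into polymers and is the member of the list most tied to antibody-secreting cells. It (chromosome 6, 86032997 to 86042394) had 134.8, 286.5 and 392.3 CPM in Takara controls and 137, 312 and 476 CPM after heat stress. No heat stress library lay below the lowest control, unlike for the other 8 genes, and 2 of 13 lay above the highest. Its log2 fold change was 0.34 ± 0.17 in Takara (SE; edgeR, adjusted p = 0.125), with 7 of 12 calves higher, and -0.20 ± 0.20 in Lexogen (SE; edgeR, adjusted p = 0.691), with 7 of 12 lower. When each calf was left out it ran from 0.20 to 0.41 in Takara and from -0.30 to -0.12 in Lexogen. The lowest Takara value over all alternatives was 0.099. Within the number series the Lexogen value of JCHAIN was 0.32 ± 0.24 in the lower and -0.72 in the upper.

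**Figure D2:**
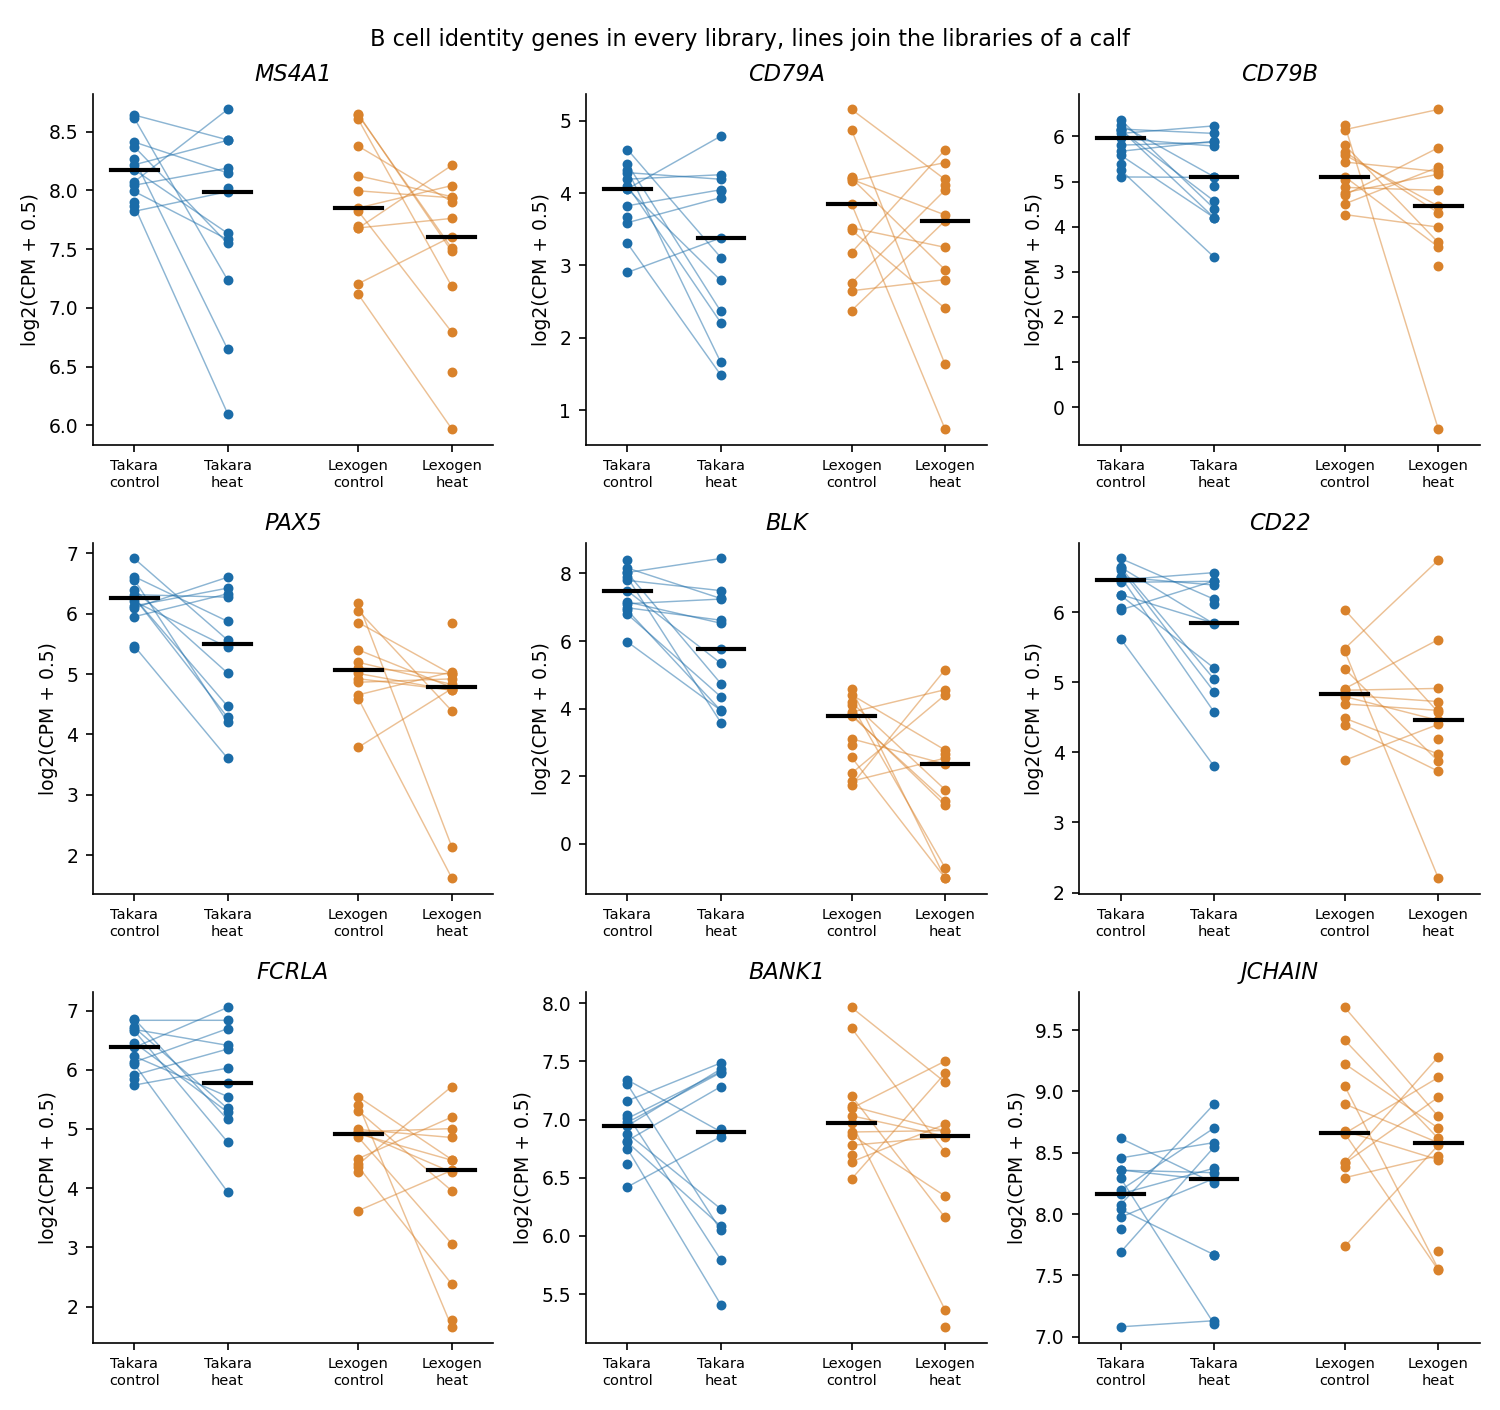
Level of the 9 B cell identity genes in every library of the comparison, as log2(CPM + 0.5), in thermoneutral control and after heat stress, with Takara in blue and Lexogen in orange. Thin lines join the libraries of a calf and black bars are medians of 13 libraries. After heat stress the Takara values of MS4A1 run from 68.1 to 412 CPM, wider than the control range of 226 to 399 CPM.

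The calves differed. In the Takara heat stress libraries of animals 7, 15, 18, 36 and 40, 8 of the 9 genes lay below the lowest control, with JCHAIN above it each time. In animals 16, 29 and 14 the number was 3, 2 and 1, and in animals 3, 12, 19, 32 and 41 it was 0. In Lexogen it was 9, 7, 5 and 2 in animals 40, 18, 15 and 36, and from 0 to 3 in the other calves. Animal 7 had no Lexogen library after heat stress. No share of all genes below the lowest control stands beside these counts. The summed level of the 9 genes ran from 974 to 1429 CPM in Takara controls (median 1225) and from 313.8 to 1531 CPM after heat stress (median 858). Its ratio within a calf, heat stress over control, was lowest in animal 40, at 0.320, and highest in animal 32, at 1.17. In Lexogen the sum ran from 699 to 1663 CPM in controls and from 325 to 1105 CPM after heat stress. The within-calf ratio in Lexogen was again lowest in animal 40, at 0.404, followed by animal 36, at 0.438, and it was highest in animal 23, at 1.40. Its direction differed between the kits in some calves. Animals 3, 12, 14 and 32 were above 1 in Takara and below 1 in Lexogen, where animal 32 was at 0.914. Animal 19 went the other way, at 0.974 in Takara and 1.10 in Lexogen.

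Neutrophils are granulocytes that hold S100A8, S100A9 and S100A12. The 10 neutrophil markers summed to 4217, 13143 and 19478 CPM in Takara controls (lowest, median and highest) and to 4500, 42756 and 79073 CPM after heat stress, and S100A12 was the most abundant. The highest sum after heat stress was that of animal 40, which had the lowest sum of B cell identity genes, and the lowest was that of animal 3, which had the highest. Between them, the neutrophil sums were 76430, 66106, 65571 and 48808 CPM in animals 15, 7, 36 and 18, 57928, 42756 and 25071 CPM in animals 16, 29 and 14, and 18620, 16826, 15061 and 12656 CPM in animals 12, 19, 32 and 41. Of the calves with both times, 7 of 12 had a lower sum of B cell identity genes with a higher sum of neutrophil markers, in each kit, and in 3 of 12 both sums were higher. The 7 were not all the same calves in the 2 kits, and animals 16, 18, 36 and 40 were among them in both. The B cell sum was higher and the neutrophil sum lower in 2 calves in Takara and 1 in Lexogen, and both were lower in 0 and 1. Of the 10 neutrophil markers tested in Takara, 8 were called higher, against 18.4% of all genes, and of 9 in Lexogen, 6, against 5.09% (edgeR). The paired fit called 8 of the neutrophil markers higher in Takara and 0 in Lexogen, against 14.9% and 0.415% of all genes. In Lexogen the neutrophil sum had a median of 3817 CPM in controls and 10592 CPM after heat stress, and no defining neutrophil marker was at 0 throughout a group. The part of neutrophil RNA in the lower B cell levels was not tested.

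**Figure D3:**
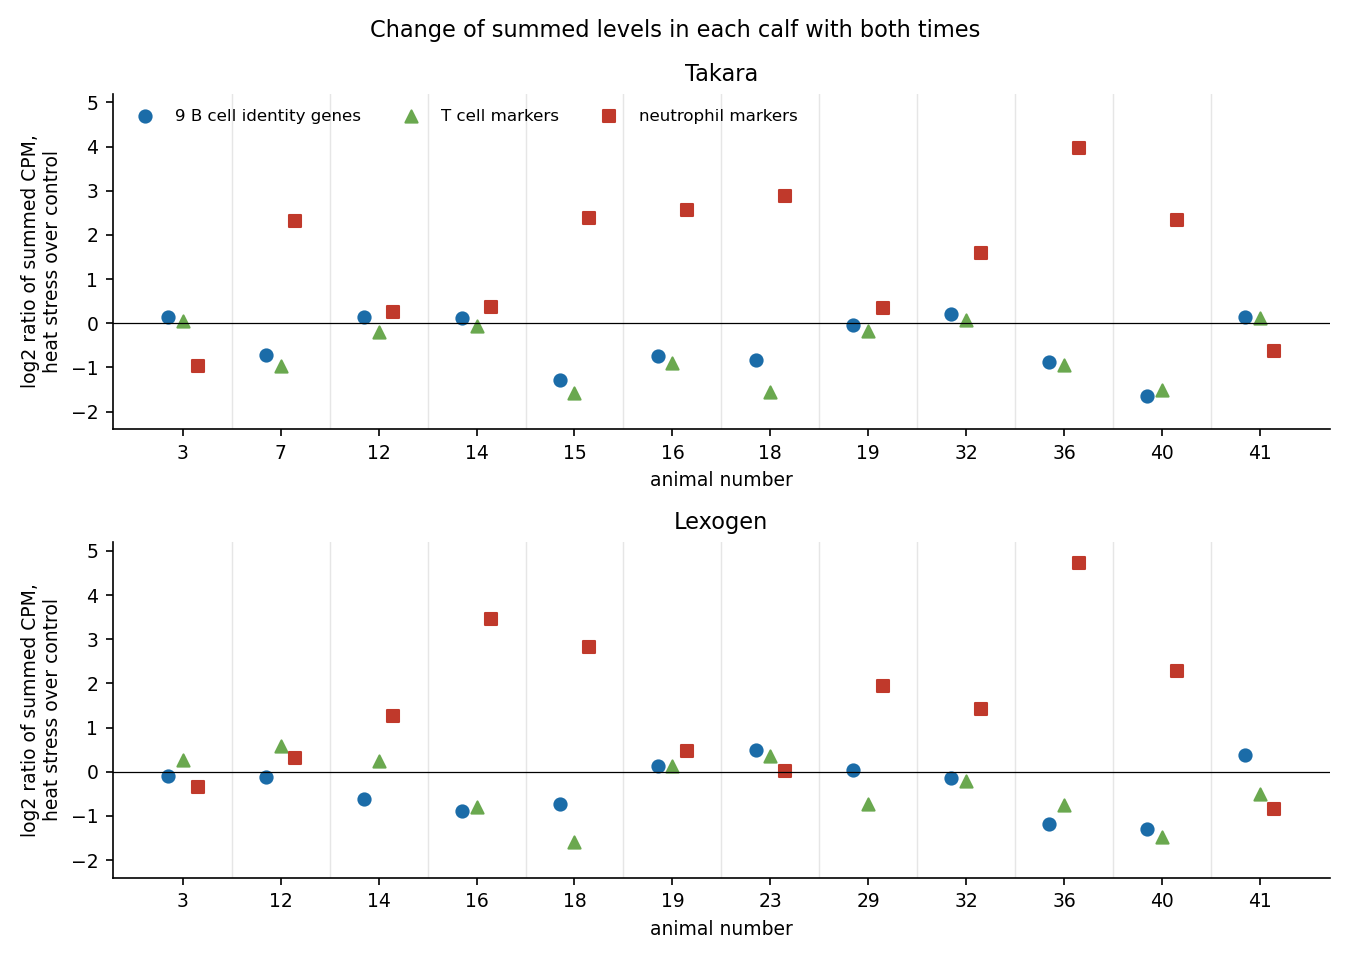
Log2 ratio of summed CPM, heat stress over thermoneutral control, in each of the 12 calves with both times, for the 9 B cell identity genes (circles), the T cell markers (triangles) and the neutrophil markers (squares), in Takara (top) and Lexogen (bottom). The ratio of the B cell sum is lowest in animal 40, 0.320 in Takara and 0.404 in Lexogen.

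The sum of the T cell markers was lower in 9 of 12 calves in Takara and in 7 of 12 in Lexogen. The 11 T cell markers summed to a median of 1496 CPM in Takara controls (1145 to 2355) and 938 CPM after heat stress (502 to 1923), with CD3D the most abundant. In Takara 5 of 11 were called lower, the CD3 chains CD3D, CD3E and CD3G with CD6 and CD8B, and 0 higher (edgeR). Of all genes tested in Takara, 10.5% were called lower and 18.4% higher. In Lexogen 0 of 10 were called, against 0.459% lower and 5.09% higher of all genes (edgeR). The sum of B cell identity genes over the sum of T cell markers had a median of 0.843 in Takara controls and 0.966 after heat stress, with overlapping ranges. In Lexogen that ratio was 2.53 and 2.34, and the T cell sum had medians of 350 and 270 CPM.

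Of 6 NK cell markers, NCR1 and CD244 were called higher in both kits in the fit without the block, and the other 4 in neither. In the paired fit both were called in Takara and neither in Lexogen (edgeR, adjusted p = 0.272 and 0.0674). Of all genes tested, 18.4% in Takara and 5.09% in Lexogen were called higher without the block, and 14.9% and 0.415% with it. The sum of the 6 NK cell markers had a median of 302 CPM in Takara controls (most abundant NKG7) and 465 CPM after heat stress (most abundant CD244), and of 127 and 217 CPM in Lexogen. The 7 monocyte markers had 2 calls in Takara, CD163 and VCAN, both higher, and 0 in Lexogen, where FCGR1A and MARCO were at 0 in all heat stress libraries. VCAN in the paired fit was at 0.37 ± 0.19 in Takara and was not called (edgeR, adjusted p = 0.147). Monocyte sums had medians of 205 and 276 CPM in Takara (most abundant CSF1R) and of 177 and 194 CPM in Lexogen (most abundant VCAN). Platelet markers, led by PF4, had medians of 2350 and 1953 CPM in Takara and 717 and 669 CPM in Lexogen, and erythroid markers, led by HBB, 1729 and 929 CPM in Takara and 335 and 259 CPM in Lexogen. No platelet or erythroid marker was called in either kit. The haemoglobin genes HBA and HBA1 held 0 reads in Lexogen libraries of both times, so HBB carries that list.

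The kits were compared on 24 RNA samples, 12 of each time, that had a library of each. In thermoneutral control 4 of the 9 genes were called higher in Takara than in Lexogen, against 36.7% of 13354 genes tested, and 2 lower, against 23.2%. BLK stood apart, with a log2 difference, Takara minus Lexogen, of 3.91 ± 0.37 (SE; edgeR, adjusted p = 2.06e-10), where the median over all genes was 0.40. FCRLA was at 1.27 ± 0.25 and CD22 at 1.23 ± 0.21, both called under each scaling and with sense counts. PAX5, at 0.83 ± 0.23, was called on unstranded counts and at 0.50 ± 0.23 with sense counts it was not (edgeR, adjusted p = 0.0661). JCHAIN was lower in Takara, at -0.97 ± 0.16, and so was BANK1, at -0.45 ± 0.12, though BANK1 was at -0.14 with total counts as library size (edgeR, adjusted p = 0.373). The log2 difference of MS4A1 was -0.095, 0.22 with total counts and -0.43 with sense counts, and that of CD79A was 0.0020 and -0.44 with sense counts. In Takara, sense counts of CD79A came to 87.5% of its unstranded counts, the lowest share among the 9 genes, against 99.6% in Lexogen.

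The heat stress effect itself was not called different between kits for any of the 9 genes by edgeR, and 0 of 13354 genes were called (0.0%). An unadjusted p under 0.05 was found for 0 of the 9 genes and for 3.94% of all genes. The largest difference was that of JCHAIN, 0.40 ± 0.22 (unadjusted p = 0.0732), with a 95% interval from -0.022 to 0.83. For BLK the difference was -0.091, with an interval from -1.13 to 0.95, wide enough to hold a change as large as the Takara effect. Both kits read the same RNA, so their heat stress values are not independent.

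**Figure D4:**
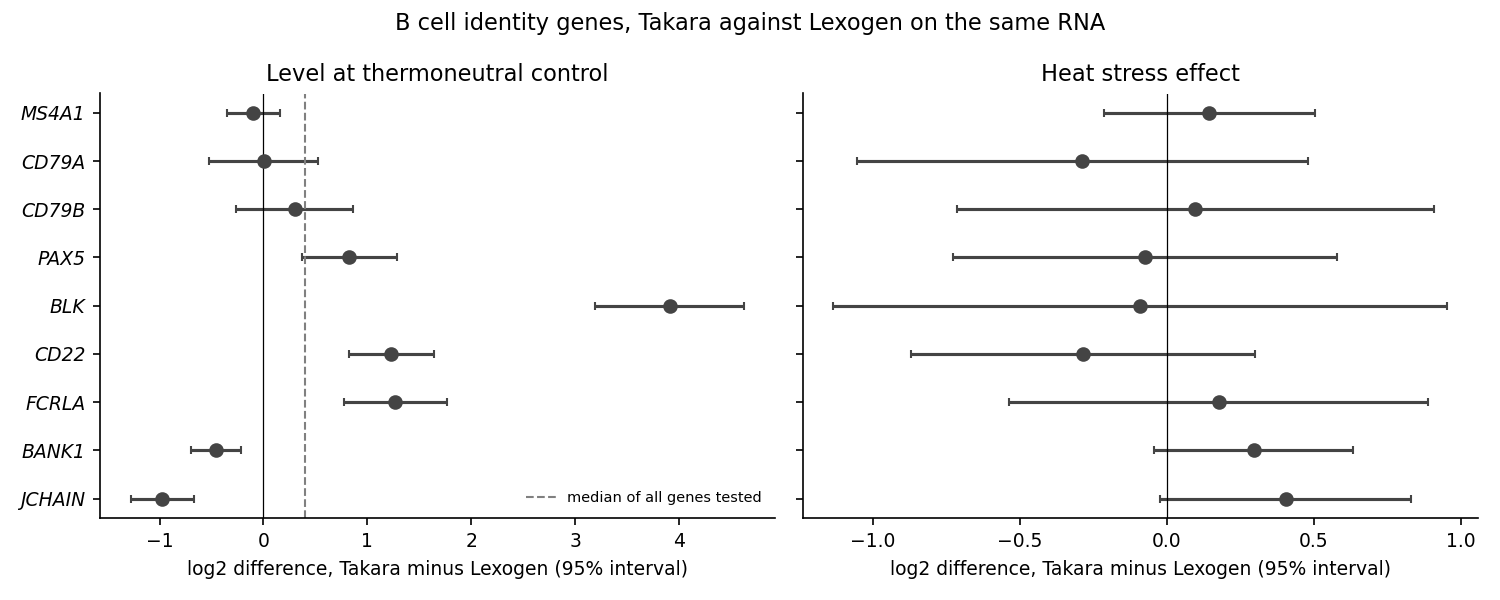
Log2 difference between kits, Takara minus Lexogen, for each B cell identity gene in 24 RNA samples, in its level at thermoneutral control (left) and in its heat stress effect (right), with 95% intervals. The dashed line on the left is the median of all genes tested, 0.40. BLK is at 3.91 on the left, and every interval on the right includes 0.

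Sample numbers form 2 series with different calves, and the labels do not say what they stand for. The heat stress effect was called different between the series for 0 of the 9 genes in Takara, against 2.27% of 13767 genes, and for 0 in Lexogen, against 0.0222% of 13484 (edgeR). At an unadjusted p under 0.05 the counts were 0 of 9 in Takara (16.2% of genes) and 1 of 9 in Lexogen (7.86%), which was JCHAIN at -1.01 ± 0.35, upper minus lower series (unadjusted p = 0.00744).

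In Takara 8 of the 9 genes varied together, and JCHAIN less so. Over the 26 Takara libraries, with levels as log2(CPM + 0.5) centred on time, the Pearson correlation between pairs of the 9 genes had a median of 0.801 over 36 pairs, from 0.230 for CD79A with JCHAIN to 0.950 for PAX5 with CD22. JCHAIN was the least alike, with a median of 0.378 with the other 8, and BLK had 0.717. In Lexogen the median over pairs was 0.358, from -0.146 to 0.782, with FCRLA the least alike at -0.028. These libraries share calves and their levels share a total, so the values are descriptions. No median over pairs of other genes is given beside them. Outside the 9 genes, the genes most alike in Takara, by the mean correlation with the 9, included RNF144A (0.826), CIITA (0.826), LOC513767 (0.819), MANBAL (0.815), PPA2 (0.813), PRDX1 (0.812) and POLD2 (0.810). CIITA is the regulator of MHC class II genes. The mean correlations of these 7 genes in Lexogen ran from 0.0331 for LOC513767 to 0.436 for RNF144A.

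Other B cell genes were taken as 43 genes in lists by role, of which 38 were tested in Takara and 36 in Lexogen. In Takara 3 were called lower and 4 higher, against 10.5% lower and 18.4% higher of all genes, and in Lexogen 0 lower and 3 higher, against 0.459% and 5.09% (edgeR). In the paired fit 7 were called lower and 4 higher in Takara, against 10.1% and 14.9% of all genes, and 0 in either direction in Lexogen, against 0.153% and 0.415%. Their median log2 fold change was -0.20 in Takara and -0.26 in Lexogen.

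In receptor signalling, 9 of 10 genes were tested in Takara, where 3 had a log2 fold change below 0. Without the block 1 was called lower and 2 higher, against 10.5% and 18.4% of all genes (edgeR). The paired fit also called 1 lower and 2 higher, against 10.1% and 14.9%. SYK, the kinase recruited to CD79A and CD79B, had a median of 463 CPM in Takara controls and 654 CPM after heat stress, and rose by 0.94 ± 0.19 on the log2 scale in Takara (SE; edgeR, adjusted p = 0.000774) and 0.68 ± 0.18 in Lexogen (adjusted p = 0.0208). DAPP1, an adaptor downstream of PI3K, rose by 0.64 ± 0.19 in Takara (edgeR, adjusted p = 0.0116) but by 0.33 with total counts as library size, which was not called. In Lexogen DAPP1 was at 0.060 ± 0.27 (SE; edgeR, adjusted p = 0.950). The paired fit did not call SYK in Lexogen (edgeR, adjusted p = 0.195). SYK and DAPP1 are also expressed in myeloid cells.

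Among co-receptors and surface proteins, CD24 rose in both kits, by 2.16 ± 0.40 in Takara (SE; edgeR, adjusted p = 0.000534) and 2.24 ± 0.47 in Lexogen (adjusted p = 0.00305). CD24 is a surface protein of B cells and also of neutrophils, and its Takara median went from 17.4 CPM in controls to 73.9 CPM after heat stress, with animal 3 lowest at 7.57 CPM and animal 15 highest at 128 CPM. With the calf as a block CD24 was at 1.87 ± 0.50 in Lexogen, which was not called (edgeR, adjusted p = 0.0788). FCER2, the low-affinity IgE receptor CD23 of mature B cells, was at -0.71 ± 0.26 in Takara (SE; edgeR, adjusted p = 0.0419), and at -0.096 within the upper number series (edgeR, adjusted p = 0.885). CD72, an inhibitory receptor, was at -0.41 ± 0.20 (edgeR, adjusted p = 0.123). None of the 4 survival and help receptors was called in Takara (edgeR), and the log2 fold change was below 0 for 3 of them, CD40 at -0.21, TNFRSF13C at -0.31 and TNFRSF17 at -0.23, and above 0 for 1.

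Of the 10 transcription factors, 9 had a log2 fold change below 0 in each kit. POU2AF1, the octamer coactivator of B cells, was called, at -0.57 ± 0.20 in Takara (SE; edgeR, adjusted p = 0.0380), and it was at 0.18 ± 0.30 in Lexogen (adjusted p = 0.837). In the paired fit 3 of the 10 were called lower in Takara, POU2AF1 among them. POU2F2, its partner, was at -0.60 ± 0.26 in Takara (edgeR, adjusted p = 0.0881). BACH2, a repressor that keeps B cells from becoming plasma cells, was at -0.43 ± 0.18 (edgeR, adjusted p = 0.0743), with 0.20 ± 0.17 in the lower number series and -1.15 ± 0.19 in the upper (edgeR, adjusted p = 0.428 and 0.0341). BACH2 is also active in T cells.

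Of the plasma cell genes, PRDM1 rose in both kits, by 1.71 ± 0.32 in Takara (SE; edgeR, adjusted p = 0.000534) and 1.05 ± 0.28 in Lexogen (adjusted p = 0.0182). In the Lexogen fit with the calf as a block PRDM1 was at 0.74 ± 0.25 (edgeR, adjusted p = 0.159). PRDM1 encodes BLIMP1, which directs plasma cell formation and is also made in T cells and myeloid cells. The other plasma cell genes tested, XBP1, MZB1 and DERL3, were at 0.072, 0.068 and -0.31 in Takara and were not called, and SDC1 held 0 reads in all controls of both kits. Of the immunoglobulin genes 2 were tested, IGHM at -0.51 ± 0.56 and IGHE at -0.86 ± 0.37 in Takara (edgeR, adjusted p = 0.510 and 0.0784), and neither was called. With the calf as a block IGHE, at -0.72 ± 0.24, was called in Takara (edgeR, adjusted p = 0.0410).

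**Figure D5:**
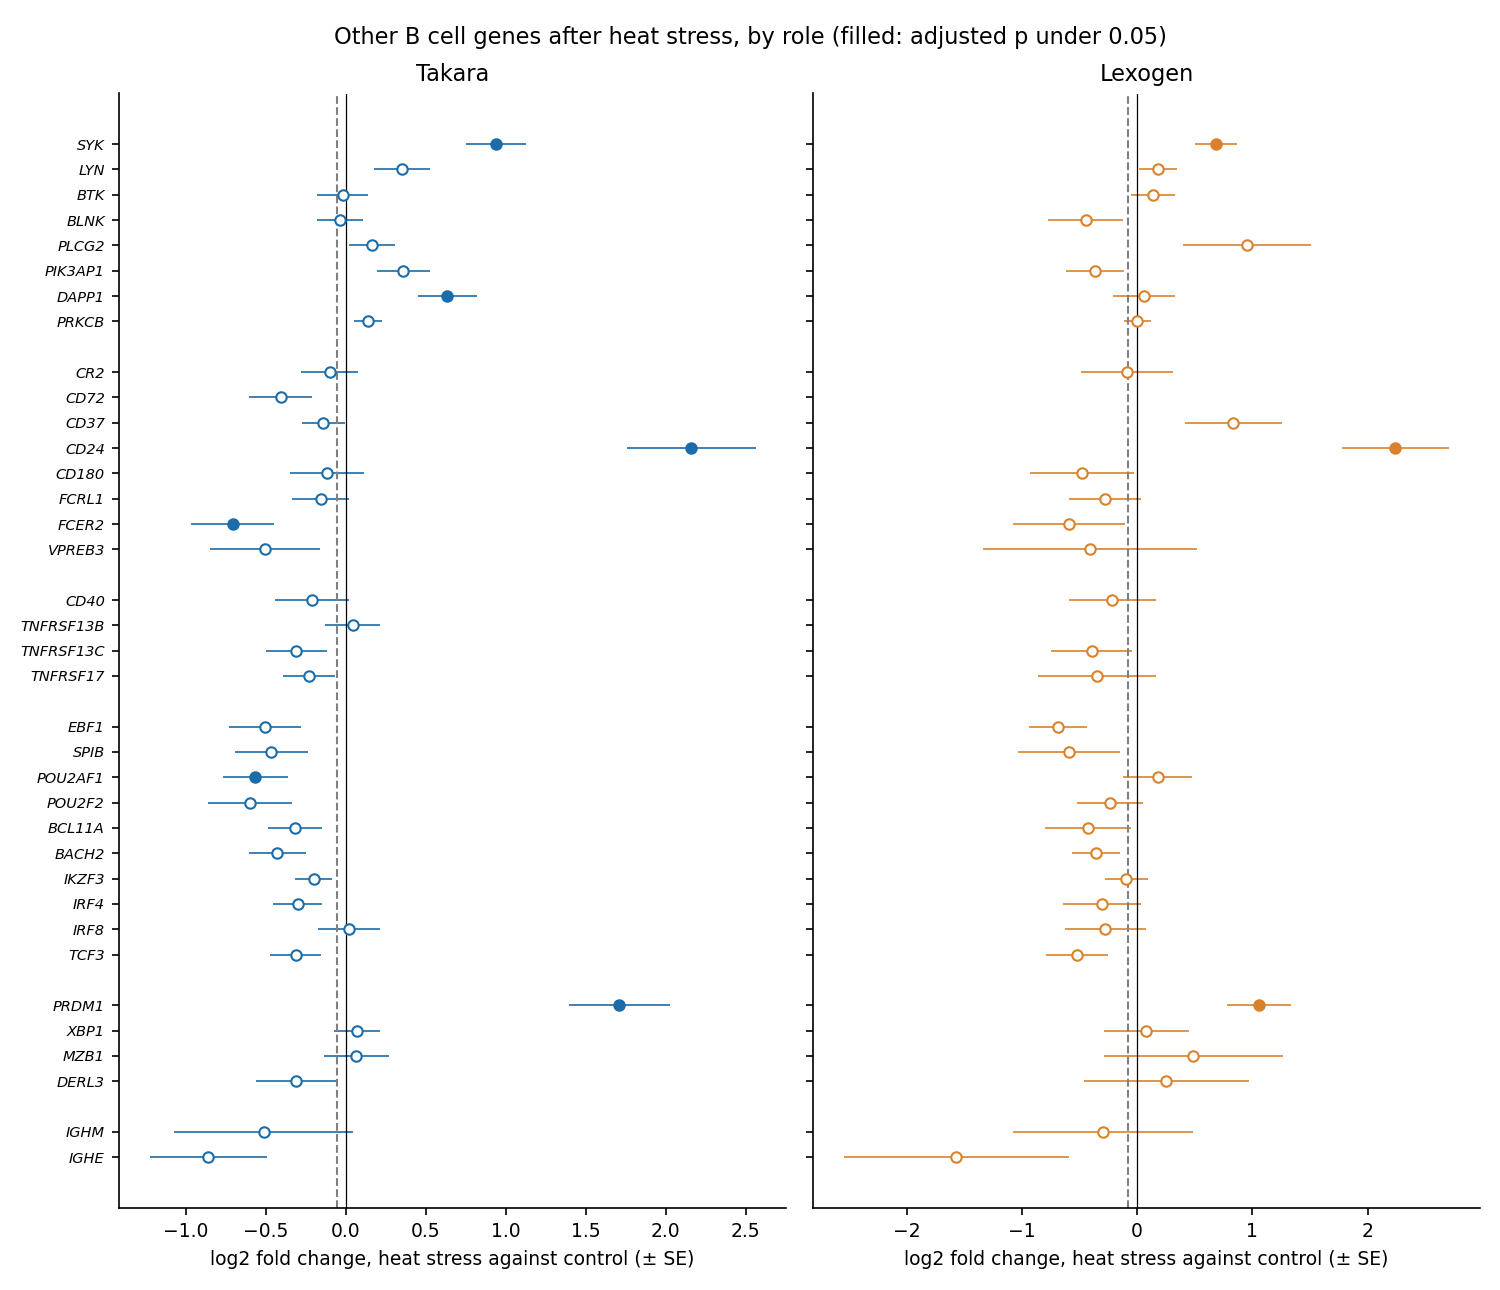
Log2 fold change of 36 of the other B cell genes tested, heat stress against thermoneutral control, with standard errors, in Takara (left) and Lexogen (right). Blocks from top to bottom are receptor signalling, co-receptors and surface proteins, survival and help receptors, transcription factors, plasma cell genes and immunoglobulin genes. Filled points passed an adjusted p of 0.05: CD24, PRDM1 and SYK lie above 0 in both kits.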

How the data were processed

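The authors used Trimmomatic 0.39 to trim the forward read and STAR 2.7.10b to align it to the cattle assembly ARS-UCD2.0, and deposited raw counts per gene. The unstranded counts were used, and sense counts were an alternative; the sources used here do not name the column that was analysed. CPM is a gene's count per 1000000 counts on genes. The times were compared within a kit with edgeR 4.0.16 in R 4.3.3, after filterByExpr and TMM, by the quasi-likelihood test in a model holding only time, at an adjusted p (Benjamini-Hochberg) under 0.05. The SE is the log2 fold change over the square root of F. The reads carry no molecular identifiers, and counts are not independent molecules. Kits were compared with the RNA sample as a block. Steps were tested on simulated data.

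Animal numbers in the labels pair the times, since they name the same calf. Levels centred on time correlated between times of a calf with a median of 0.239 in Takara, over 0.1 in 10 of 12 calves, and 0.0122 in Lexogen, over 0.1 in 2 of 12. The study's model has no block, so the calf entered as a block in an alternative.

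The members and lists were chosen with earlier results of these data known. Named genes were the 9 members, other B cell genes called in both kits, otherwise at most 3 per role list with the smallest unadjusted p in Takara, and genes most alike. Alternatives were DESeq2 1.42.0 on all expressed genes, its size factors, total counts as library size, no filter, sense counts, animal 20 at either time, each number series, the series as a covariate, the calf as a block and leaving out each calf. A fit of the calves with both times without the block was chosen after seeing the data. IGHD, IGHA and GP1BB were not found under these symbols. Positions come from RefSeq's table for ARS-UCD2.0. Promoter sequences were not analysed here.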

Additional observations from a re-analysis of the deposited data

Results flagged for a closer look

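BACH2, a transcription factor of the other B cell genes, had a heat stress effect that differed between the number series in Takara by -1.37 ± 0.26 on the log2 scale, upper minus lower series (SE; edgeR, adjusted p = 0.00465). In Lexogen the difference was -0.87 ± 0.38 (edgeR, adjusted p = 0.540).

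The libraries of animal 20, outside the comparisons, held sums above every thermoneutral control of their kit. Neutrophil markers summed to 76796 CPM in Takara and 39152 CPM in Lexogen, B cell receptor signalling genes to 2123 and 2382 CPM, and NK cell markers to 462 and 401 CPM. In Lexogen alone, monocyte markers were also above the controls, at 405 CPM, as were plasma cell genes, at 204 CPM. The 9 B cell identity genes in animal 20 summed to 383 CPM in Takara and 414 CPM in Lexogen, below every control. Of the heat stress libraries, 1 of 13 lay below that sum in each kit. The neutrophil sum of animal 20 was above 12 of 13 heat stress libraries in Takara and 13 of 13 in Lexogen.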

How the results depend on the processing

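The count of 1 B cell identity gene called lower in Takara was 0 with total counts as library size, 0 with no filter on low counts, 0 with animal 20 as a control, 2 with animal 20 as heat stress and 4 with the calf as a block. It was 0 in the calves with both times without the block, a fit chosen after seeing the data, and from 0 to 2 when each calf was left out. No gene was called higher in Takara, and none either way in Lexogen, under any of these alternatives or with DESeq2. Of members lower in Takara than in Lexogen at control, 2 became 1 with total counts as library size and 3 with sense counts. A share of all genes called is given above for the edgeR fits on TMM and unstranded counts, without and with the block. The other counts here have no such share beside them. The block changed no other member's call. The causes were not tested.

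Values that changed sign were, in Takara, BANK1 at -0.089 with total counts and -0.0045 with the calf as a block, and, within number series, MS4A1 at 0.063 (upper) and BACH2 at 0.20 (lower). In Lexogen within the upper series they were CD79A at 0.17, CD79B at 0.031, BLK at 0.10, FCER2 at 0.36 and DAPP1 at -0.40, and within the lower series JCHAIN at 0.32, POU2AF1 at -0.019 and BACH2 at 0.065. In Lexogen CD22 ran from -0.50 to 0.054 when each calf was left out, and was 0.017 without animal 18 and 0.054 without animal 29. Also in Lexogen, DAPP1 was at -0.019 with total counts. Between kits at control, MS4A1 was at 0.22 with total counts and CD79A at -0.44 with sense counts. Values that kept their sign but moved when each calf was left out included, in Takara, MS4A1 (-0.22 to -0.090), FCRLA (-0.34 to -0.17) and BANK1 (0.033 to 0.13). In Lexogen FCRLA ran from -0.68 to -0.30. Over the 234 alternative values of the members in each kit, 207 in Takara and 228 in Lexogen kept their direction and side of the threshold. Over all genes tested the SE had a median of 0.185 in Takara and 0.417 in Lexogen, which limits what Lexogen could show.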

Other observations

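IGHM, the constant region gene of IgM, was low in animals 3 and 14 at both times. In Takara, animal 3 had 6.18 CPM of IGHM in control and 8.98 CPM after heat stress, and animal 14 had 22.8 and 5.09 CPM. The next lowest Takara library, animal 40 after heat stress, had 165 CPM, and the highest, animal 23 in control, had 1094 CPM. In Lexogen, where IGHM was sparse, counts in animals 3 and 14 were 1 or 2 reads at each time, and animal 40 had 0 and animal 18 had 1 after heat stress. In animal 3 the sum of B cell identity genes was 1395 CPM in control and 1531 CPM after heat stress in Takara, and in animal 14 it was 984 and 1075 CPM.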
